A study of Mus musculus with 20 samples.

Results

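NIH3T3 cells, a fibroblast line from mouse embryos, were kept for 4 h in medium to which 18 mM NaOH had been added, under 5% CO2, and were compared with cells collected at 0 h under 5% CO2. The 4 NaOH 4 h libraries and the 4 libraries of 0 h make 8 of the 20 libraries of the series. All cells grew in medium with 18 mM sodium bicarbonate and were used on day 4 of plating, and NaOH served in the study as a treatment that made the medium alkaline without lowering CO2. For orientation, the 4 libraries of 2 h in NaOH and the 4 libraries of 4 h at 1% CO2, which also makes the medium alkaline, are set beside them. No library of untreated cells at 2 h or 4 h was analysed here, so the NaOH and the time and handling that came with it cannot be told apart. NIH3T3 is an immortal line, and the study describes the 4 replicates of a condition as biological, while the labels do not say whether they came from separate cultures, and p-values reflect only how far these libraries differed.

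Cells hold their cytosol near neutral pH with sodium-proton exchangers, bicarbonate transporters and proton-linked lactate carriers, and many enzymes and receptors change their activity with pH. Fibroblasts answer growth factors, adhesion signals and chemical stress with a first wave of immediate early genes, whose mRNAs are made within minutes and decay fast. A second wave follows that encodes secreted ligands, cytoskeletal proteins and inhibitors of the signals that started it. Serum response factor (SRF), which binds a DNA element called the CArG box, drives actin and adhesion genes when its coactivators of the MRTF family are released from monomeric actin.

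RNA was counted by bulk MARS-seq, which sequences the 3' ends of transcripts and counts molecules by their molecular identifiers. Values are normalized counts, the counts of a gene divided by the size of its library relative to the mean of the 20 libraries (trimmed mean of M-values, TMM). Since only 3' ends were counted, a level is given per gene and not per length. The 8 libraries held 2815294 to 5640523 counts, 2815294 to 5640523 at 0 h and 3250421 to 4260274 at NaOH 4 h. Of 13 fibroblast markers 11 were measured, and their summed level was 122800 to 136800 at 0 h and 134400 to 139100 after 4 h in NaOH, with none called in either direction. Col1a1, the main collagen chain of fibroblasts, read 34103, 30181, 35690.5 and 35860.5 at 0 h and 38276, 36805, 32055 and 33753 after 4 h in NaOH. Markers of other cells were mostly absent from the deposited counts, which gives no level for them. Counts were deposited for 3 of 9 epithelial, 2 of 9 immune, 1 of 7 endothelial and 2 of 11 adipocyte and muscle markers. Of these 1, 2, 1 and 2 passed the filter, and none was called. Their sums at 0 h were 759.8 to 888.3, 126.4 to 178.3, 4.456 to 8.766 and 197.8 to 250.7. The epithelial value is that of Krt14 alone, which was not low.

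After 4 h in NaOH a large part of the transcriptome had moved. The filter kept 9726 genes whose normalized count averaged 5 or more over the 20 libraries, of which 739 were higher and 774 lower. The limits were 0.05 for the adjusted p and 1, in size, for the log2 fold change (edgeR's quasi-likelihood test, Benjamini-Hochberg adjustment). A gene that passed both limits is called higher or lower in what follows, or said to have risen or fallen. The called genes were 7.60% of all tested genes in the upward and 7.96% in the downward direction, and these percentages are the background for each gene list. At an adjusted p of at most 0.05 alone, 28.2% were higher and 26.9% lower, together 55.1%. The median log2 fold change was 1.36 among the called higher and -1.37 among the called lower genes. Changes of at least 2 in size were found for 135 higher and 103 lower genes, and of at least 3 for 43 higher and 10 lower genes. Of the calls, 711 higher and 724 lower genes had no overlap between the 4 libraries of each group, where 25.9% and 24.1% of all tested genes did so in the upward and downward direction.

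The genes that rose were more abundant than those that fell. The higher group mean was at least 50 for 528 of the genes called higher and for 264 of those called lower, and under 20 for 112 and 236. The median level at 0 h was 86.98 over all tested genes, 55.7 over the called higher and 31.5 over the called lower genes, and the genes called higher reached a median of 163.9 at 4 h. The genomic span of the genes was alike, with medians of 22.6 kb, 23.3 kb and 26.0 kb. Genes called higher took 3.1% to 3.3% of the counts of each library at 0 h and 7.6% to 7.8% after 4 h, and those called lower went from 1.9% to 0.6%. Scaling by library size alone moved the median of all genes to a log2 fold change of -0.19 and gave 512 higher and 1156 lower genes. The changes below are stated relative to the TMM scale.

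**Figure D1:**
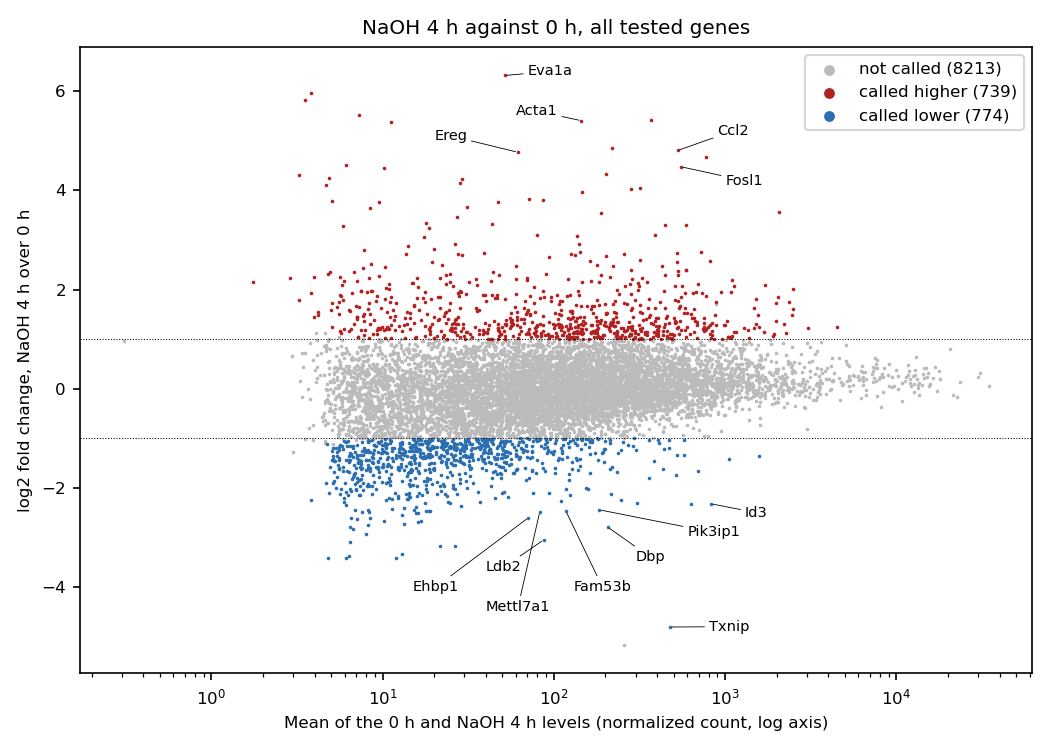
Log2 fold change (NaOH 4 h over 0 h, vertical axis) against the mean normalized count of the 2 groups (horizontal axis, log scale) for 9726 genes, with 739 called higher in red, 774 called lower in blue and dotted lines at the fold change limit of 1. The named points are 5 large rises and the 8 largest falls among well measured genes, and the red points reach higher levels than the blue ones.

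Among genes that averaged 50 or more in the higher group and whose libraries did not overlap, large rises were found in a muscle actin and in signalling ligands. Eva1a, a lysosomal and endoplasmic reticulum protein tied to autophagy, read 0.557, 0.797, 2.23 and 1.60 at 0 h and 101, 92.7, 119 and 95.0 after 4 h in NaOH. Every NaOH library lay far above every 0 h library, and the log2 fold change was 6.32 (SE 0.28), with an adjusted p of 4.17e-20.

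Acta1, the skeletal muscle alpha-actin that fibroblasts switch on with SRF activity, read 8.36, 3.98, 7.80 and 5.599 at 0 h and 312, 276, 291 and 248 after 4 h in NaOH, a log2 fold change of 5.41 (SE 0.16). Ccl2, the chemokine that draws monocytes, read 37.3, 44.6, 25.6 and 35.2 at 0 h and 949.9, 971, 1195 and 964 after 4 h in NaOH, or 4.81 (SE 0.14). Ereg encodes epiregulin, a ligand of the EGF receptor, and went from 5.02, 3.19, 3.34 and 4.80 to 99.1, 108, 161 and 107, or 4.77 (SE 0.27). Each of these genes separated the groups completely. Fosl1, an AP-1 subunit, rose by 4.48 (SE 0.12).

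With the same limits, the largest falls were led by Txnip, the thioredoxin-interacting protein, an arrestin that binds thioredoxin and limits glucose uptake. Txnip read 959.7, 904, 921 and 893 at 0 h and 33.0, 26.3, 30.1 and 41.2 after 4 h in NaOH, a log2 fold change of -4.81 (SE 0.14) with an adjusted p of 2.34e-25. Ldb2, a LIM-domain-binding cofactor, read 168, 144, 154 and 154 at 0 h and 13.6, 16.03, 23.3 and 22.2 after 4 h in NaOH. Dbp, a clock-controlled transcription factor, read 309.9, 369.8, 394 and 369.5 at 0 h and 49.996, 59.5, 43.7 and 54.9 after 4 h in NaOH. The 3 genes fell without any overlap, and the log2 fold changes of Ldb2 and Dbp were -3.05 and -2.79. Log2 fold changes of -2.61 for Ehbp1, which links endocytosis to actin, -2.49 for Mettl7a1, -2.47 for Fam53b, -2.44 for Pik3ip1, an inhibitor of PI3-kinase, and -2.32 for Id3 followed.

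**Figure D2:**
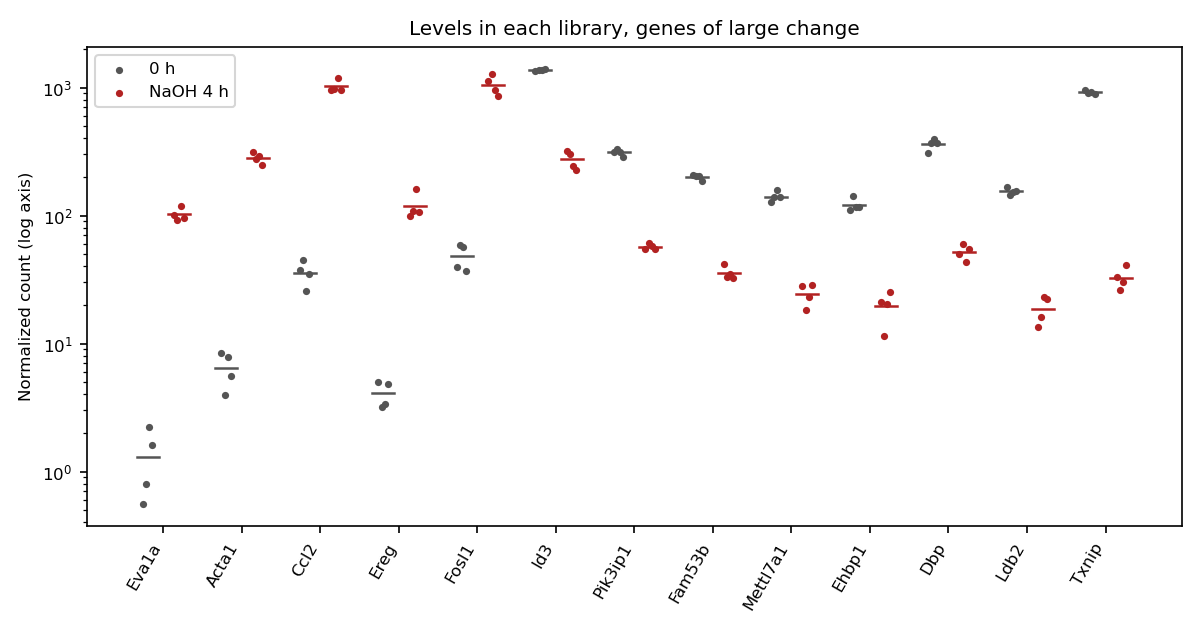
Normalized count (vertical log axis) of 5 genes of large rise and the 8 of largest fall in each of the 4 libraries of 0 h (grey) and the 4 of NaOH 4 h (red), with bars at the group means. The groups do not overlap for any of the 13 genes, and the points spread most for Eva1a at 0 h, from 0.557 to 2.23.

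Among the most abundant genes that rose, Timp3, an inhibitor of matrix metalloproteinases, ranged from 2525 to 2836 at 0 h and 5919.8 to 6838 after 4 h, and Actn4, an actin crosslinker, from 1116 to 1342 at 0 h and 3275 to 4361 after 4 h. Tnfrsf12a, the receptor of the cytokine TWEAK, went from 321, 355, 269.6 and 339.9 to 3828, 3947, 3850.0 and 3669, a log2 fold change of 3.57 (SE 0.087), which made it a highly expressed gene after 4 h. Gsto1, a glutathione transferase, rose by 1.48 (SE 0.077), Fam129b by 1.74 (SE 0.078), Oaf by 1.85 (SE 0.069), Anxa5, a calcium-dependent phospholipid-binding protein, by 1.13 (SE 0.086), and Hnrnpab, an RNA-binding protein, by 1.31 (SE 0.077). Among the most abundant genes that fell, Gas1, which is named for its expression in growth-arrested cells, went from 1051, 993, 1139.7 and 1050.2 to 191, 177, 234 and 245, a log2 fold change of -2.32 (SE 0.089). H1f0, the linker histone of resting cells, changed by -1.66 (SE 0.084), Tns2, a focal adhesion protein, by -1.42 (SE 0.08), Socs2, an inhibitor of growth hormone signalling, by -1.35 (SE 0.091), Zcchc24 by -1.34 (SE 0.10), and Ramp2, a receptor-activity-modifying protein, by -1.04 (SE 0.097). The non-coding gene 2410006H16Rik was the most abundant that fell, from 2365, 2251, 2267 and 2239 to 867, 985, 878 and 809. Ramp2 was at -0.975 without NaOH 4 h replicate 3, which ended the call.

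Secreted ligands were among the genes that rose. Of 19 tested EGF receptor ligands and feedback inhibitors of the ERK kinases, 14 rose and 1 fell, with a median log2 fold change of 1.65 against 0 over all tested genes. Hbegf, the heparin-binding EGF-like growth factor, read 18.9, 18.3, 13.4 and 17.6 at 0 h and 272, 286, 272 and 266 after 4 h in NaOH, which put the lowest treated library above every library of 0 h. Its log2 fold change was 3.96 (SE 0.12) with an adjusted p of 5.7e-25. Dusp6, a phosphatase that acts on ERK, rose by 1.77 (SE 0.16). Dusp8, a phosphatase that acts mainly on stress kinases, was the member that fell, from 94.7, 78.9, 59.0 and 87.2 to 16.9, 22.9, 18.4 and 17.9.

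Of 31 other growth factors and cytokines, 12 rose and none fell at these limits, with a median of 0.55. At an adjusted p of at most 0.05 alone, 1 member was lower. Pdgfa, a chain of platelet-derived growth factor, read 405, 418, 418 and 485 at 0 h and 2128, 1858, 1683 and 1593 after 4 h in NaOH, or 2.07 (SE 0.094). Clcf1, a cytokine of the interleukin-6 family, rose by 2.37 (SE 0.10), and Fstl3, an inhibitor of activins, by 1.92 (SE 0.10). Of 18 NF-kB targets and chemokines, 9 rose and none fell, with a median of 1.07; scaled by library size alone, 8 rose and 2 fell. Ccl7, the neighbour of Ccl2 on chromosome 11 and a ligand for monocyte receptors as well, read 105, 81.3, 64.6 and 72.8 at 0 h and 745, 783, 983 and 749.6 after 4 h in NaOH. Nfkbia, the inhibitor that NF-kB induces against itself, rose by 1.62 (SE 0.11), and Cxcl1, a neutrophil chemokine of low level here, from 8.92, 11.2, 4.46 and 4.00 to 23.7, 17.2, 20.4 and 9.502.

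The immediate early genes did not share a direction at 4 h. Of 24 tested, 10 were called higher and 4 lower, with a median log2 fold change of 0.25. Fosl1, a late member of the Fos family, went from 39.6, 59.0, 56.8 and 36.8 to 1120.2, 1276, 959 and 857. Srf itself read 128, 119.5, 119 and 130.4 at 0 h and 380.5, 477, 408 and 363 after 4 h in NaOH, or 1.71 (SE 0.10), and Ier3, a regulator of cell survival, rose by 1.099 (SE 0.095). The orphan nuclear receptor gene Nr4a3 had no count in the 4 libraries of 0 h and 10.2, 10.3, 6.80 and 3.17 after 4 h. Ier3 was at 0.970 without NaOH 4 h replicate 2, which ended the call.

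The members that fell included the best-known first-wave genes. Egr1, a zinc finger factor that growth factors induce, read 335, 384, 372 and 316 at 0 h and 82.2, 65.3, 76.7 and 96.1 after 4 h in NaOH, a log2 fold change of -2.13 (SE 0.11). Fos was low throughout, with 11.1, 12.8, 17.8 and 16.8 at 0 h and 5.08, 8.02, 4.85 and 8.45 after 4 h. Klf2, a factor that restrains proliferation and inflammation, fell from 786, 783, 850.0 and 779 to 183, 262, 256 and 254, and Btg2, an antiproliferative cofactor of mRNA deadenylation, changed by -1.48 (SE 0.27). Myc was not called, with 199.5, 174, 191 and 196 at 0 h and 276, 259, 257 and 311 after 4 h in NaOH and a log2 fold change of 0.54 (SE 0.09). Of 11 Krüppel-like factors, 3 rose, among them Klf16 by 1.68 (SE 0.11), Klf10 by 1.04 (SE 0.13) and Klf5 by 1.44 (SE 0.36), and 2 fell, Klf2 and Klf11, the latter with a log2 fold change of -1.34 (SE 0.27). Fos was at -0.999 without NaOH 4 h replicate 1 and Klf10 was at 0.973 to 0.996 without 0 h replicate 4 or NaOH 4 h replicate 1 or 4, which ended the call.

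Of 27 tested cytoskeletal targets of SRF, 12 were called higher and 1 lower, and 24 were higher at an adjusted p of at most 0.05 alone, with a median of 0.90. Acta2, smooth muscle alpha-actin, the marker of contractile myofibroblasts, read 30.7, 39.0, 36.8 and 24.8 at 0 h and 530.5, 521, 533 and 531 after 4 h in NaOH, a log2 fold change of 4.02 (SE 0.12). Tagln, the actin-binding protein transgelin, read 115, 121, 92.5 and 105 at 0 h and 1170.2, 1119, 1035 and 964 after 4 h in NaOH, or 3.30 (SE 0.097). Vcl, which encodes vinculin and couples actin to adhesions, read 196, 225, 184 and 178 at 0 h and 765, 733, 1012 and 791 after 4 h in NaOH, or 2.07 (SE 0.11). The groups were far apart for each of these genes. Filip1l, a filamin-interacting protein, was the member that fell, with a log2 fold change of -1.26 (SE 0.16).

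Some promoters of this list hold the CArG box. The list was made of SRF targets, so its share of boxes is no result of the NaOH treatment. Among the 22 tested members with a RefSeq promoter of 300 bases (250 before and 50 after the start of transcription), 8 hold a CArG box, 36.4%, where 1.32% of the promoters of all tested genes do, 2.17% of those called higher and 0.668% of those called lower. Acta2 and Tagln are not among the 8. The pattern searched is the same on either strand, while the bases of a single box need not be. The 4 promoters of the members with a CArG box that were called higher are printed, from RefSeq on GRCm38.p6, 5′ to 3′ on the gene's strand, with the CArG boxes in capitals, since these genes hold the element and were called. The other 4 members with a box, Cnn2, Fhl2, Lima1 and Myl9, had log2 fold changes of 0.53, 0.47, 0.64 and 0.85 and were not called, and their names were chosen after the values were seen. The box starts 73 bases before the start of transcription in Acta1, 90 bases before it in Actg1, 82 and 62 bases before it in Srf and 227 bases before it in Vcl. Actg1, cytoplasmic gamma-actin, ranged from 52.8 to 75.8 at 0 h and 120.3 to 133 after 4 h, and was not called with library size alone, at 0.902.
Acta1, chr8:123894726-123895025, - strand: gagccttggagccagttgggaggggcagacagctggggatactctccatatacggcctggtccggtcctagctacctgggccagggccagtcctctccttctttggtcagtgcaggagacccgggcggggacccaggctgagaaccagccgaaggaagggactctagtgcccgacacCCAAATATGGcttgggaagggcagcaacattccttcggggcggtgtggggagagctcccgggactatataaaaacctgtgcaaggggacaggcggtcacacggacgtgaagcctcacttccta
Actg1, chr11:120348446-120348745, - strand: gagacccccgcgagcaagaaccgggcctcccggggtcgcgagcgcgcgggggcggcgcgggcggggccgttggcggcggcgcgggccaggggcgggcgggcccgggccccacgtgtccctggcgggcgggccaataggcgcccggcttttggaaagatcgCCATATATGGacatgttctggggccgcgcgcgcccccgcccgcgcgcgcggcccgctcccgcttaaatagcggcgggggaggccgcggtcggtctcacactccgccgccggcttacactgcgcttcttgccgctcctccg
Srf, chr17:46556113-46556412, - strand: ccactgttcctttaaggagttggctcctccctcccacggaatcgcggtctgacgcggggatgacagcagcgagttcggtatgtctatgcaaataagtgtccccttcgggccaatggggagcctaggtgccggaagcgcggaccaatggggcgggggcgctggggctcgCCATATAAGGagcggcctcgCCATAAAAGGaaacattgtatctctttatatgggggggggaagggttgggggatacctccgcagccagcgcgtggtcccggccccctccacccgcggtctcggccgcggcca
Vcl, chr14:20929148-20929447, + strand: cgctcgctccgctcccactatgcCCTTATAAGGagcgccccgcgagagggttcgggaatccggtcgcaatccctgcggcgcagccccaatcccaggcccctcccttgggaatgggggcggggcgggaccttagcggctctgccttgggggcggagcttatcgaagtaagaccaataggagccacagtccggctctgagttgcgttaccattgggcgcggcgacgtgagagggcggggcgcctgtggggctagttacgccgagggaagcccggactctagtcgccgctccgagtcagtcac

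Of 27 integrins and focal adhesion genes, 6 rose and none fell, with a median of 0.25; scaled by library size alone, 4 rose and 2 fell. Itga5, the integrin subunit that pairs in the fibronectin receptor, read 61.3, 63.0, 55.7 and 76.0 at 0 h and 325, 346, 284 and 299.8 after 4 h in NaOH, or 2.28 (SE 0.13). Itgb3 rose by 1.49 (SE 0.091) and Tns3, a tensin, by 1.74 (SE 0.10). Of 26 targets and factors of the YAP pathway, 6 rose and none fell, where library size alone gave 6 and 2. Ctgf, a matricellular protein and classical YAP target, read 90.3, 71.7, 89.1 and 75.2 at 0 h and 676, 657, 701 and 772 after 4 h in NaOH, or 3.10 (SE 0.10). The coactivator gene Wwtr1, which encodes TAZ, rose by 1.59 (SE 0.11) and Tead1 by 1.23 (SE 0.11).

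Of 23 genes of TGFbeta signalling, 6 rose and 2 fell, with a median of 0.49. Pmepa1, which TGFbeta induces and which restrains its receptors' SMADs, read 23.4, 17.5, 18.9 and 14.4 at 0 h and 408, 401, 358 and 365 after 4 h in NaOH, or 4.33 (SE 0.14). Smad7, the inhibitory SMAD, rose by 1.80 (SE 0.12) and Snai1, a repressor of epithelial genes, by 1.80 (SE 0.079). Snai2 and Zeb2, repressors of the same kind, changed by -1.71 and -1.26 on the log2 scale. Of 17 genes of BMP signalling and the ID proteins, 4 rose and 3 fell. Id3, which blocks helix-loop-helix factors and which BMPs induce, read 1349, 1369.8, 1381 and 1402 at 0 h and 321, 305, 246 and 228 after 4 h in NaOH, and Id2 fell from 190.0, 189, 214 and 177 to 60.2, 52.7, 59.2 and 41.2. Id1 was not called, with 428, 444, 404 and 433 at 0 h and 591, 543, 481 and 469.8 after 4 h in NaOH. Atoh8 changed by -1.73 (SE 0.16), Runx1 by 2.60 (SE 0.096) and the receptor gene Acvr1 by 1.32 (SE 0.095). Of 15 Notch and Wnt targets, 2 rose, Hes1 by 1.11 (SE 0.13) and Ccnd1, and neither passed with library size alone.

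The structural matrix genes had a small median change. Of 38 collagens and matrix proteins, 4 rose, or 10.53% against 7.60% of all tested genes, and none fell. The median was 0.17 and became -0.02 with library size alone, a scaling that also gave 2 falls. At an adjusted p of at most 0.05 alone, 16 were higher and 6 lower, against 28.2% and 26.9% of all tested genes. Thbs1, thrombospondin 1, read 165, 143, 162 and 141 at 0 h and 893, 779, 986 and 931 after 4 h in NaOH, or 2.55 (SE 0.096). Col4a1, a basement membrane collagen, rose by 1.24 (SE 0.077) and Tnc, tenascin C, by 1.35 (SE 0.12). Col1a1 changed by 0.053 (SE 0.082), and Col3a1, another fibrillar collagen, by -0.38 (SE 0.09), without a call. Of 24 matrix enzymes and inhibitors, 7 rose and 1 fell. Plaur, the urokinase receptor, read 128, 132, 123 and 136 at 0 h and 743, 796, 681 and 666 after 4 h in NaOH, and Plod2, which hydroxylates collagen lysines, ranged from 175 to 183 at 0 h and 677 to 714 after 4 h. Mmp11, stromelysin 3, was the member that fell, with a log2 fold change of -1.43 (SE 0.12).

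Of 11 tested tubulin genes, 5 were called higher and 1 lower, with a median of 0.92. Tubb6 read 392, 397, 385 and 399.9 at 0 h and 1796, 1785, 1848 and 1757 after 4 h in NaOH, or 2.19 (SE 0.067), Tuba1c rose by 2.58 (SE 0.096) and Tubb2a by 1.38 (SE 0.069). Tubd1, the delta-tubulin of centrioles, changed by -1.49 (SE 0.24). The tubulin genes share sequence, and reads of near-identical copies may have been counted under either name.

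A minority of the sterol genes rose. Of 20 enzymes of cholesterol synthesis, 4 were called higher and none lower, 15 were higher at an adjusted p of at most 0.05 alone, and the median was 0.48. Library size alone left 2 of these calls. Hmgcs1, HMG-CoA synthase, read 819.8, 873, 858 and 777 at 0 h and 1689.7, 1799, 2039.5 and 2014 after 4 h in NaOH, a log2 fold change of 1.18 (SE 0.08). Cyp51, lanosterol demethylase, rose by 1.34 (SE 0.11). Sqle, squalene epoxidase, missed the fold change limit at 0.97 (SE 0.092). Of 13 genes of sterol uptake and sensing, 3 rose, among them Insig1, an endoplasmic reticulum protein of sterol sensing, by 1.08 (SE 0.097) and Stard4, a sterol carrier, by 1.63 (SE 0.26). Of 23 genes of fatty acid synthesis, 2 rose, Fads3 by 1.08 (SE 0.085) and Fasn, fatty acid synthase, by 1.302 (SE 0.25), and Acacb fell, with 9.47, 9.56, 18.9 and 7.20 at 0 h and 5.08, 4.58, 0.971 and 1.06 after 4 h in NaOH. Scd1, stearoyl-CoA desaturase, changed by -0.054 (SE 0.08) without a call.

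Slc2a1, the glucose transporter GLUT1, read 966, 985, 1035 and 970.2 at 0 h and 3980.2, 4050.1, 3908 and 3907 after 4 h in NaOH, a log2 fold change of 2.002 (SE 0.071) with an adjusted p of 5.01e-23. Hk2, hexokinase 2, rose from 49.6, 54.2, 34.5 and 47.2 to 322, 249.6, 277 and 270.3 and Pfkl, a phosphofructokinase, by 1.17 (SE 0.12). These were the 3 risers among 23 genes of glucose uptake and glycolysis. Pdk2, a kinase that blocks pyruvate dehydrogenase, changed by -1.36 on the log2 scale, and Ldha, lactate dehydrogenase A, was not called at 0.76 (SE 0.072). Of 7 alpha-arrestins and glucose sensors 2 fell, Txnip and Arrdc3, the latter from 13.9, 15.9, 11.1 and 15.2 to 8.47, 2.29, 6.80 and 4.22, a call that DESeq2 did not make, at -0.991. Of 19 other targets of HIF-1, 5 rose and none fell, among them Vegfa, the endothelial growth factor, by 1.29 (SE 0.078), Plod2 by 1.96 (SE 0.088) and Angptl4, an inhibitor of lipoprotein lipase, by 2.21 (SE 0.22).

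The measured transporters that carry acid and base equivalents shared no direction. Of 37 genes listed, 17 had deposited counts, and all 17 passed the filter. The others have no level here, and no proton-linked lactate carrier is among the 17. Of the 17, 2 rose and 1 fell, or 11.76% and 5.88% against 7.60% and 7.96% of all tested genes. At an adjusted p of at most 0.05 alone, 5 were higher and 5 lower, against 28.2% and 26.9% of all tested genes. The median was 0.01 and turned to -0.18 with library size alone. Slc4a2, the anion exchanger AE2, which exports bicarbonate, read 209, 181, 207 and 213 at 0 h and 248, 339, 250.5 and 266 after 4 h in NaOH, a log2 fold change of 0.44 (SE 0.12), and was not called. Slc4a7, a sodium-bicarbonate cotransporter, rose from 5.57, 3.19, 2.23 and 4.00 to 5.93, 10.3, 15.5 and 19.0, a level near the detection limit. Slc9a9, an endosomal exchanger, changed by -1.11 (SE 0.26). Slc9a9 was at -0.943 to -0.987 without 0 h replicate 2 or NaOH 4 h replicate 3, which ended the call. None of 17 subunits of the vacuolar proton pump was called. Of 158 solute carriers, 16 rose and 11 fell, or 10.13% and 6.96% against 7.60% and 7.96% of all tested genes. Slc6a8, the creatine transporter, at 1.24 (SE 0.082) and Slc39a14, a zinc and manganese importer, at 1.71 (SE 0.14) came next after Slc2a1 by p-value.

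Among stress programmes, the chaperone list held the most risers. Of 24 heat shock and chaperone genes, 11 rose and 1 fell, 20 were higher at an adjusted p of at most 0.05 alone, and the median was 0.75. Library size alone left 6 risers. Hsph1, the large HSP110 chaperone, read 440.3, 452, 432 and 439.9 at 0 h and 1706, 1990.1, 1725 and 1423 after 4 h in NaOH, or 1.95 (SE 0.093). Hspd1, the mitochondrial HSP60, rose by 1.48 (SE 0.094) and Cryab, a small heat shock protein, by 1.22 (SE 0.08). Dnajb4 was called lower at -1.03 (SE 0.39), with the overlapping values 27.9, 22.3, 24.5 and 7.20 at 0 h and 11.02, 3.44, 17.5 and 7.39 after 4 h in NaOH. Dnajb4 was at -0.778 to -0.981 without 0 h replicate 1 or 2 or 3 or NaOH 4 h replicate 2 or 4, which ended the call. None of 19 genes of the unfolded protein response was called, with a median of -0.05. At an adjusted p of at most 0.05 alone 3 were higher and 7 lower, against 28.2% and 26.9% of all tested genes. Hspa5, the endoplasmic reticulum chaperone BiP, read 1937, 2191, 1879 and 1717 at 0 h and 1681, 1762, 2529 and 2077 after 4 h in NaOH.

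Of 27 genes of the integrated stress response, the programme of the transcription factor ATF4, 1 rose and 2 fell. Slc7a1, a cationic amino acid transporter, rose by 1.17 (SE 0.10), Trib3, a pseudokinase that ATF4 and CHOP induce, fell from 559, 630.3, 510.2 and 553 to 232, 195, 196 and 193, and Pck2 changed by -1.23 (SE 0.23). Atf4, at 0.44 (SE 0.074), Ddit3, which encodes CHOP, at -0.87 (SE 0.091), and Asns, asparagine synthetase, at 0.31 (SE 0.083), were not called. Of 25 targets of NRF2, the regulator of antioxidant genes, 3 rose: Srxn1, which repairs peroxiredoxins, by 1.24 (SE 0.082), Txnrd1, thioredoxin reductase, by 1.36 (SE 0.10), and Osgin1 by 1.58 (SE 0.24). Nqo1, at -0.34 (SE 0.14), Hmox1, heme oxygenase 1, at 0.32 (SE 0.15), and Slc7a11, at 0.69 (SE 0.40), were not called.

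Growth arrest genes split. Of 19 p53 targets and GADD45 genes, 4 rose and 3 fell. Gadd45b read 134, 133, 99.2 and 130.4 at 0 h and 583, 466, 481 and 459 after 4 h in NaOH, Gadd45g rose by 1.19 (SE 0.078) and Phlda3 by 1.14 (SE 0.084). Their relative Gadd45a fell from 649.8, 690.1, 636 and 622 to 211, 228, 202 and 205, and the log2 fold change of Sesn1, a stress-induced inhibitor of mTORC1, was -1.99. Rrm2b, a ribonucleotide reductase subunit, ranged from 6.37 to 12.3 at 0 h and 0.847 to 3.88 after 4 h. Cdkn1a, the cyclin-dependent kinase inhibitor p21, was not called at 0.55 (SE 0.09). Of 15 tested genes of the BCL2 family, 2 rose, 2 fell and 11 were not called, with a median of -0.07. The share was 13.33% in each direction, against 7.60% and 7.96% of all tested genes. The survival genes Bcl2l1 and Mcl1 rose by 1.00 (SE 0.081) and 1.02 (SE 0.096), calls that library size alone did not make. The death-promoting BH3 genes Bmf and Bbc3 fell, Bmf from 192, 176, 189 and 194 to 41.5, 43.5, 43.7 and 58.1 and Bbc3, which encodes PUMA, from 181, 175, 178 and 191 to 39.0, 35.5, 33.0 and 42.2. Bcl2l1 was at 0.943 to 0.998 without 0 h replicate 3 or 4 or NaOH 4 h replicate 1 or 2 and Mcl1 was at 0.957 to 0.987 without 0 h replicate 1 or 4 or NaOH 4 h replicate 3, which ended the call.

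Of 50 tested ribosome biogenesis factors, 30 were called higher and none lower, 44 were higher and none lower at an adjusted p of at most 0.05 alone, and the median was 1.12. With library size alone 23 were higher and the median was 0.93. Their summed level was 6670.0 to 7060.0 at 0 h and 14500.0 to 15540.0 after 4 h. Nop2, a methyltransferase of the large ribosomal RNA, read 151, 149, 154 and 148 at 0 h and 748, 766, 776 and 659 after 4 h in NaOH, or 2.29 (SE 0.093). Nop56, a core protein of the box C/D small nucleolar particles, read 68.0, 82.9, 60.2 and 59.99 at 0 h and 406, 354, 381 and 366 after 4 h in NaOH, or 2.47 (SE 0.12), and Ppan rose by 1.63 (SE 0.092).

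Of the 43 tested members with a RefSeq promoter, 10 hold the E-box CACGTG (searched on both strands, where it reads the same), 23.3%, against 829 of the 7526 promoters of all tested genes, 12.6% of those called higher and 9.02% of those called lower. The E-box is the element bound by MYC and related factors. The promoters of the 2 called members of smallest p that hold it are printed with the E-box in capitals.
Nop2, chr6:125131633-125131932, + strand: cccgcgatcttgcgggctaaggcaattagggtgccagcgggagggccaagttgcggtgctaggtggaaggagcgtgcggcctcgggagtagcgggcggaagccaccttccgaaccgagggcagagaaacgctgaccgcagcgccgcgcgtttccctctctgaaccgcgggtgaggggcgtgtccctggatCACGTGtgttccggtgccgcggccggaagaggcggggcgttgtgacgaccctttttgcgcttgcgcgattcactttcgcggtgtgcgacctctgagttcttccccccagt
Mybbp1a, chr11:72441077-72441376, + strand: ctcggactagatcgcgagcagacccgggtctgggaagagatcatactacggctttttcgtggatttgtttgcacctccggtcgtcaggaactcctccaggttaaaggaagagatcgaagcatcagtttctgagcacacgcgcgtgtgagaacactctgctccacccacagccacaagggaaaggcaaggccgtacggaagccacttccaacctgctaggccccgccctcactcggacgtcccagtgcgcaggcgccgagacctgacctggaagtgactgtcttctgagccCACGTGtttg
Mybbp1a, a nucleolar protein, rose by 1.42 (SE 0.086). In the network of MYC and its partners no member rose, and the MYC antagonist genes Mxd1 and Mxd3 fell, at low levels, with log2 fold changes of -1.81 and -1.35. At an adjusted p of at most 0.05 alone 3 of 6 members were higher and 3 lower, against 28.2% and 26.9% of all tested genes. Odc1, ornithine decarboxylase, the entry to polyamine synthesis, read 25.1, 31.9, 15.6 and 28.0 at 0 h and 175, 166, 158 and 146 after 4 h in NaOH, or 2.65 (SE 0.15), and Srm, spermidine synthase, rose by 1.29 (SE 0.085). The ribosomal protein genes themselves were not called, with 0 of 79 cytosolic and 0 of 70 mitochondrial members, and medians of 0.22 and -0.01. At an adjusted p of at most 0.05 alone, 23 of the 79 cytosolic members were higher and 1 lower, against 28.2% and 26.9% of all tested genes. Of 54 translation factors 4 rose and 1 fell, or 7.41% and 1.85% against 7.60% and 7.96% of all tested genes. Among those that rose were Eif4a1 by 1.06 (SE 0.10), Eif5 by 1.05 (SE 0.12) and Eef1e1 by 1.01 (SE 0.13). None of these 4 rises passed with library size alone. Eef2kmt changed by -1.28 on the log2 scale. Eif5 was at 0.943 to 0.960 without 0 h replicate 4 or NaOH 4 h replicate 3 and Eef1e1 was at 0.903 to 0.995 without 0 h replicate 1 or 4 or NaOH 4 h replicate 3 or 4, which ended the call. Rars, arginyl-tRNA synthetase, rose by 1.103 (SE 0.12).

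Of 36 tested mitosis genes, 24 were called lower and 1 higher, 32 were lower at an adjusted p of at most 0.05 alone, and the median was -1.46. Their summed level was 1692 to 2267 at 0 h and 923.6 to 967.8 after 4 h. Mki67, the proliferation antigen Ki-67, read 42.4, 51.0, 33.4 and 32.8 at 0 h and 6.78, 8.02, 6.80 and 11.6 after 4 h in NaOH, or -2.28 (SE 0.23). Plk1, a mitotic kinase, read 73.0, 84.5, 63.5 and 49.6 at 0 h and 12.7, 20.6, 14.6 and 23.2 after 4 h in NaOH, or -1.96 (SE 0.21), and Cdc25b, a phosphatase that opens mitosis, 185, 215, 204 and 192 at 0 h and 74.6, 87.0, 72.8 and 57.01 after 4 h in NaOH. Ccnb1, cyclin B1, fell at a low level from 16.2, 11.2, 10.0 and 7.20 to 3.39, 0, 7.77 and 4.22. Ccnf, cyclin F, was the member that rose, by 1.38 (SE 0.21). Without 0 h replicate 1, Ccnb1 was at -1.221 with an adjusted p of 0.0769 (edgeR), which ended the call.

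The CCAAT box, which the factor NF-Y binds, was searched as CCAAT on both strands. Of 30 mitosis genes with a promoter 23 hold it, 76.7%, against 39.0% of all tested genes, 34.7% of the called higher and 44.1% of the called lower genes. The promoters of the 2 called members of smallest p that hold it are printed with the box, or its complement ATTGG, in capitals. Cdc25b has 1 box and Mki67 has 3.
Cdc25b, chr2:131186698-131186997, + strand: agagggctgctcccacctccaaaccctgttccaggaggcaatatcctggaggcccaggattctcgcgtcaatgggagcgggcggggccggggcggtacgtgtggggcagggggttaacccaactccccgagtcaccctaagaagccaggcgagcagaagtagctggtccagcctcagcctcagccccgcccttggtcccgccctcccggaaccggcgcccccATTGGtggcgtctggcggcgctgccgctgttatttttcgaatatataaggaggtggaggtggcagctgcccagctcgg
Mki67, chr7:135716330-135716629, - strand: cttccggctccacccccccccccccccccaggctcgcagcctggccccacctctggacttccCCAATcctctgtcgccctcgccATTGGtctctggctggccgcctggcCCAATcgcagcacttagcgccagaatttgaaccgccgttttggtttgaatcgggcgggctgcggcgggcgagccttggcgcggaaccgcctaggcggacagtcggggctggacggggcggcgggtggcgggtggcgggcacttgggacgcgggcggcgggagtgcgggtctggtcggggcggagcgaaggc
Of 43 genes of S phase and the G1 cyclins, 9 fell and 2 rose, with a median of -0.53. Tk1, thymidine kinase, read 35.7, 36.7, 23.4 and 27.2 at 0 h and 7.63, 9.16, 7.77 and 8.45 after 4 h in NaOH, and Pold1, a replicative polymerase, and Prim1, a primase subunit, changed by -1.33 and -1.12 on the log2 scale. Ccnd1, cyclin D1, rose from 257, 310.0, 228 and 252 to 563, 595, 496 and 539, and Dut rose at a low level, from 3.90, 4.78, 2.23 and 1.60 to 13.6, 9.16, 7.77 and 8.45. In a bulk culture fewer dividing cells and less of these mRNAs per cell cannot be told apart.

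**Figure D3:**
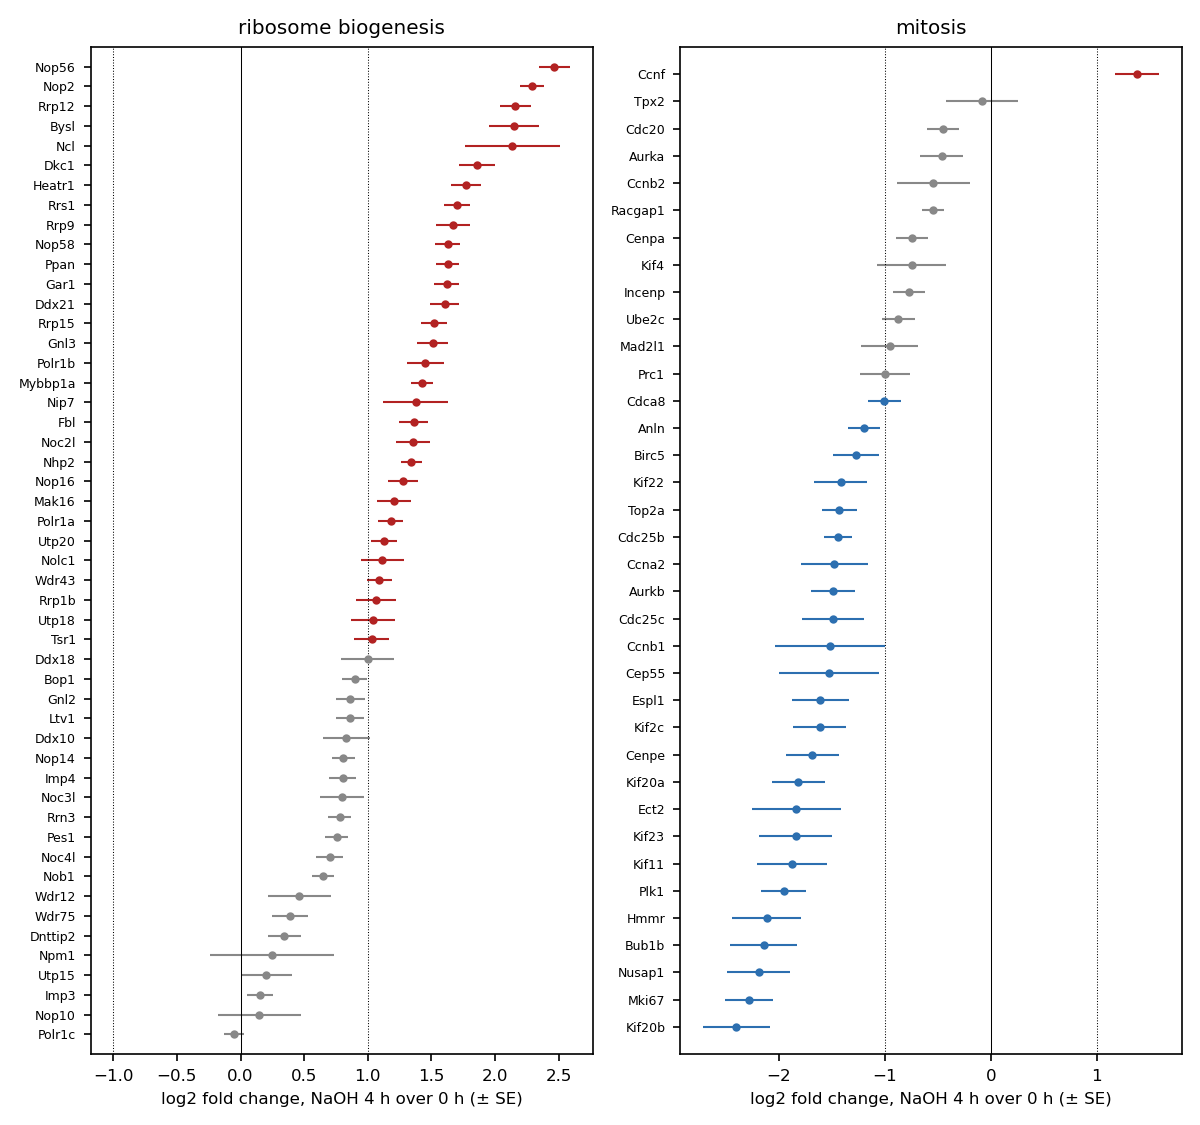
Log2 fold change (NaOH 4 h over 0 h, horizontal axis, bars are standard errors of the fit) of each tested gene of ribosome biogenesis (left, 50 genes) and of mitosis (right, 36 genes), with called higher genes in red, called lower in blue and the others in grey. In ribosome biogenesis 30 genes lie past the limit on the right, and in mitosis 24 lie past it on the left.

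Of 17 clock genes, 4 rose and 3 fell. The positive factor Arntl (BMAL1) rose by 1.69 (SE 0.12), the repressors Cry1 and Bhlhe40 by 1.53 (SE 0.13) and 1.23 (SE 0.094). Dbp and its relative Tef, which clock factors drive, changed by -2.79 and -1.09 on the log2 scale, and Per3 fell from 119, 111, 128 and 130.4 to 26.3, 21.8, 35.9 and 28.5. Per1, at -0.15 (SE 0.17), and Nr1d1, at 0.22 (SE 0.13), were not called. Of 17 interferon-stimulated genes, 7 fell and none rose, with a median of -0.72. Tap1, a peptide transporter of antigen presentation, read 173, 144, 157 and 148 at 0 h and 49.996, 52.7, 41.7 and 46.5 after 4 h in NaOH, Ifit2 fell from 49.6, 44.6, 55.7 and 41.6 to 7.63, 6.87, 11.6 and 10.6 and Irf1, an inducing factor, changed by -1.31 on the log2 scale. Psmb9, the interferon-induced subunit, was the 1 member of 35 proteasome genes called, at -1.20 (SE 0.24).

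Cirbp, the cold-inducible RNA-binding protein, read 238, 241, 267 and 273 at 0 h and 57.6, 59.5, 55.3 and 78.1 after 4 h in NaOH, a log2 fold change of -2.02 (SE 0.12), while its relative Rbm3 read 25.6, 25.5, 33.4 and 33.6 at 0 h and 17.8, 19.5, 32.0 and 24.3 after 4 h in NaOH and was not called. They were listed with 29 splicing factors in all, of which 2 rose, Ptbp1 by 1.29 (SE 0.086) and Srsf2 by 1.156 (SE 0.088). Among 23 mRNA decay factors, Btg3 rose by 1.02 (SE 0.21) and Btg2 fell. Btg3 was at 0.927 to 0.968 without 0 h replicate 2 or 4 or NaOH 4 h replicate 4, which ended the call. Among 34 chromatin genes, Dot1l, a histone methyltransferase, rose by 1.39 (SE 0.15) and Ezh1, a Polycomb methyltransferase, changed by -1.31 on the log2 scale.

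Of 76 subunits of oxidative phosphorylation, Atp5s alone was called, at -1.14 (SE 0.33), with a median of -0.07 for the family. Atp5s was at -0.966 without 0 h replicate 3, which ended the call. Of 32 lysosome and autophagy genes, Ctsf, a cathepsin of low level, alone was called, at 1.97 (SE 0.40), and Lamp1, a lysosomal membrane protein, read 4924, 4767, 5116 and 4925 at 0 h and 5826, 5547, 5528 and 5856 after 4 h in NaOH. Of 184 zinc finger genes with Zfp names, 16 fell and 5 rose. These are 8.70% and 2.72%, against 7.96% and 7.60% of all tested genes, and DESeq2 called 10 lower and 2 higher. The falls were led by Zfp512 at -1.52 (SE 0.17), Zfp639 at -1.05 (SE 0.17) and Zfp386 at -1.91 (SE 0.36). The 5 that rose were Zfp462, Zfp52, Zfp593, Zfp697 and Zfp7, by 1.31, 1.03, 1.38, 1.155 and 1.01. Zfp639 was at -0.985 without 0 h replicate 4, Zfp52 was at 0.889 to 0.948 without 0 h replicate 3 or NaOH 4 h replicate 3 or 4, Zfp697 was at 0.903 to 0.957 without 0 h replicate 4 or NaOH 4 h replicate 1 or 3 and Zfp7 was at 0.921 to 0.980 without 0 h replicate 4 or NaOH 4 h replicate 1 or 3, which ended the call. Of 311 genes with RIKEN names, 47 fell and 15 rose, with 0610009B22Rik at -1.69 (SE 0.16) and 3010026O09Rik at -3.34 (SE 0.38). No qPCR reference gene of 12 was called.

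Where a list had no called member in a direction with edgeR, single members could still be past an unadjusted p of 0.05. Of the 9726 tested genes, 5798 were past that limit in either direction, so such a count by itself is no sign of a response. In the downward direction this held for 1 growth factor or cytokine, 2 chemokine and NF-kB genes, 4 adhesion genes, 4 YAP genes, 4 Notch and Wnt genes, 1 gene of cholesterol synthesis, 1 of sterol uptake, 2 HIF-1 targets, 6 NRF2 targets, 7 matrix proteins, 2 genes of polyamine synthesis, 8 lysosome genes, 2 tRNA synthetases and no gene of ribosome biogenesis. In the upward direction it held for 2 alpha-arrestins and sensors, 3 genes of the MYC network, 1 interferon-stimulated gene, 7 subunits of oxidative phosphorylation and 18 of the proteasome. In lists with no call at all, higher and lower counts were 4 and 7 for the unfolded protein response, 29 and 1 for cytosolic and 13 and 18 for mitochondrial ribosomal proteins, 5 and 1 for the V-ATPase, 2 and 3 for reference genes and 4 and 3 for fibroblast markers. Of the markers of other cells, 1 epithelial and 1 adipocyte or muscle gene were lower and no immune or endothelial gene passed. DESeq2 called no member of these lists in these directions.

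**Figure D4:**
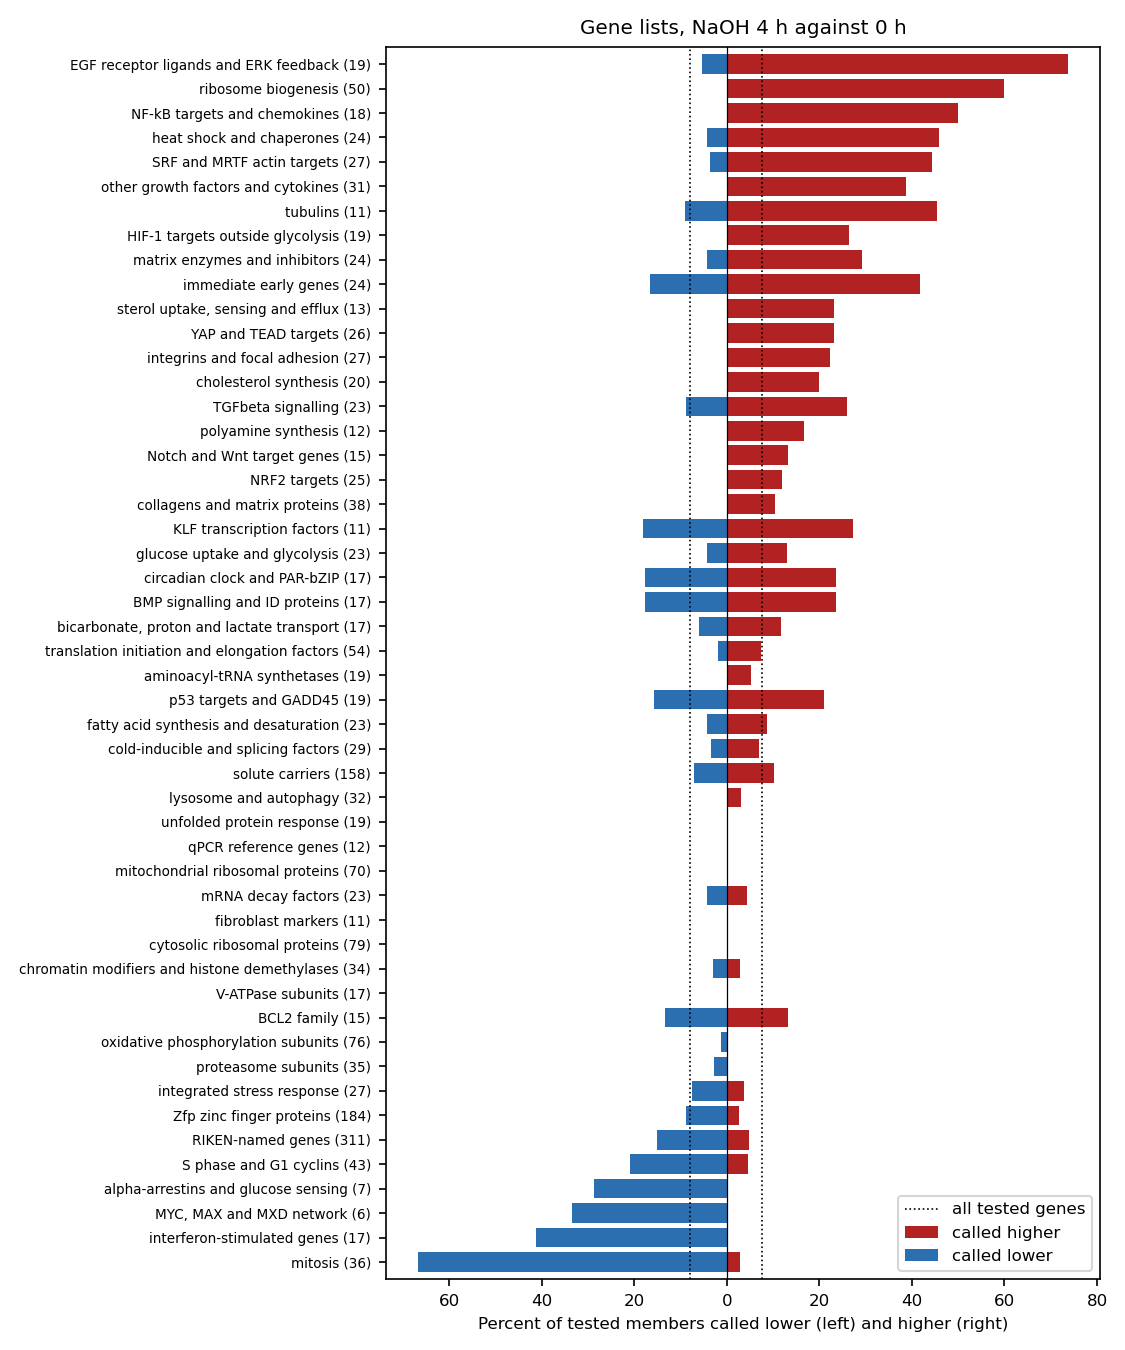
Percent of the tested members of each gene list (number tested in parentheses) called higher to the right and lower to the left, with dotted lines at the 7.60% and 7.96% of all tested genes. The ligand, ribosome biogenesis, chemokine and chaperone lists reach farthest to the right and mitosis farthest to the left.

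The question of what changed between 2 h and 4 h in NaOH was answered by the same fit, in which 265 genes were higher at 4 h (2.72%) and 396 were lower (4.07%). Of 24 immediate early genes, 16 were lower at 4 h, with a median of -1.55 against 0.01 over all tested genes. Nr4a1, an orphan nuclear receptor, averaged 20.8 ± 3.97 (SD, n = 4) at 0 h, 2509 ± 363 at 2 h and 71.9 ± 24.8 at 4 h, a log2 fold change of -5.11 (SE 0.24) from 2 h to 4 h. Fosb averaged 5.24 ± 2.79, 686 ± 58.4 and 18.6 ± 9.29, and Atf3 68.4 ± 3.51, 737 ± 106 and 42.7 ± 9.88. These genes peaked at 2 h among the times sampled. The largest falls by the rule were those of Fosb, Nr4a1, Ankrd1, Nr4a3 and Atf3, at -5.18, -5.11, -4.99, -4.33 and -4.10.

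The large responders at 4 h had different time courses. Ctgf averaged 7134 ± 365 (SD, n = 4) at 2 h and 702 ± 50.1 at 4 h, a log2 fold change of -3.35 (SE 0.092). Hbegf went from 1271 ± 115 to 274 ± 8.61 and Gadd45b from 1802 ± 270.0 to 497 ± 57.8. These 3 genes were still above 0 h at 4 h but well below 2 h. The contractile genes differed little between the times, with 0.061 (SE 0.10) for Acta1, 0.036 (SE 0.093) for Acta2 and 0.041 (SE 0.084) for Tagln. Txnip was already low at 2 h, with 28.9 ± 6.13, and changed by 0.17 (SE 0.21) from 2 h to 4 h.

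Other genes rose late. Nav2, a microtubule and axon growth protein, averaged 16.3 ± 4.72 (SD, n = 4) at 0 h, 19.0 ± 6.57 at 2 h and 143 ± 23.7 at 4 h. Itpk1, an inositol phosphate kinase, averaged 104 ± 4.84, 96.5 ± 11.2 and 449 ± 27.9. From 2 h to 4 h large rises were those of Nav2, Tfap4, Hilpda and Itpk1, at 2.98, 2.30, 2.21 and 2.20. Tfap4, a helix-loop-helix factor, and Hilpda, a lipid droplet protein, were below their 0 h level at 2 h, with 13.5 ± 4.96 against 41.3 ± 7.13 and 47.3 ± 1.56 against 68.5 ± 2.11. Late falls were seen in Id3, Ldb2, Dbp and Egr1, at -2.005 (SE 0.11), -2.43 (SE 0.17), -1.99 (SE 0.13) and -1.68 (SE 0.12) from 2 h to 4 h.

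**Figure D5:**
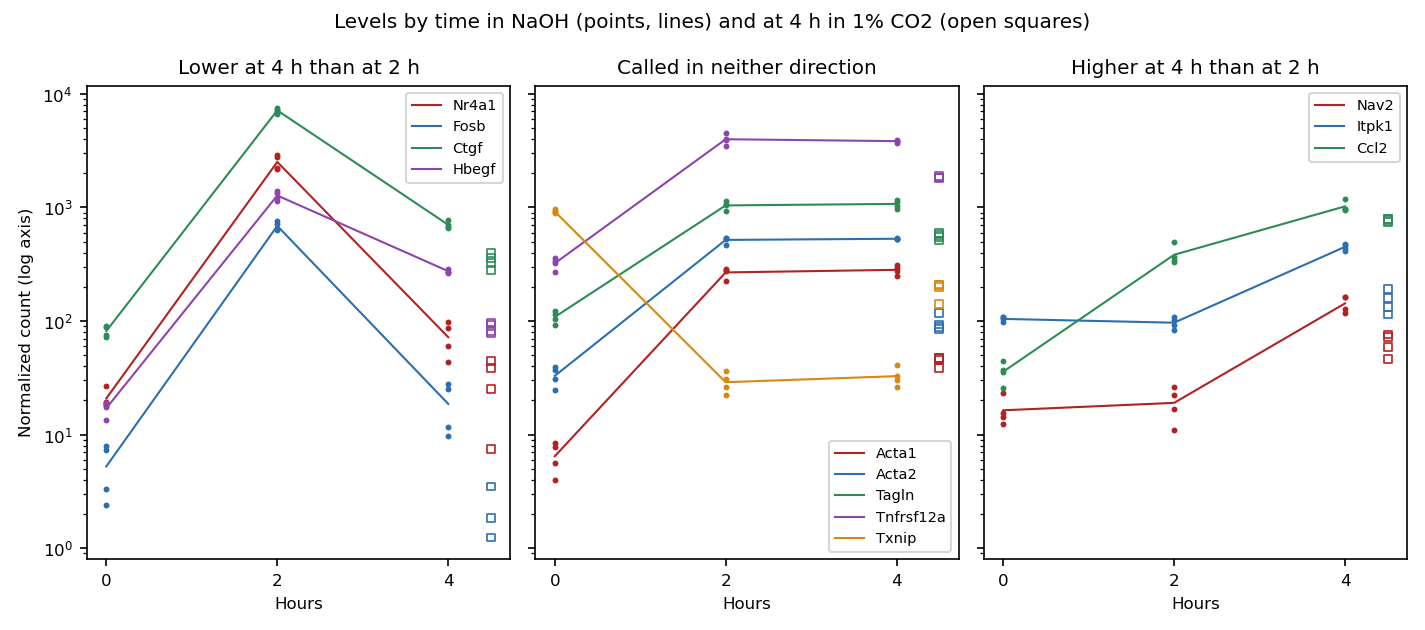
Normalized count (vertical log axis) at 0, 2 and 4 h in NaOH, with a point for each of the 4 libraries and lines through the means, and open squares, set to the right of 4 h, for the 4 libraries of 4 h at 1% CO2, where a library at 0 (Fosb) cannot be drawn on the log axis. The left panel shows genes called lower at 4 h than at 2 h, the middle panel genes called in neither direction between these times and the right panel genes called higher at 4 h.

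NaOH was used in the study as the alkaline control for the lowering of CO2, and the NaOH libraries were tested against the 1% CO2 libraries of 4 h directly. The study moved the 1% CO2 cells to a special incubator, so treatment and change of incubator cannot be told apart in this comparison. Here 309 genes were higher in NaOH (3.18%) and 321 lower (3.30%), together 6.48%. Genes with a large excess in NaOH were Gpr39, Glis1, Pmepa1 and Nfatc1. Gpr39, a zinc-sensing receptor, averaged 3.01 ± 1.54 (SD, n = 4) at 1% CO2 against 53.5 ± 7.55 in NaOH, a log2 fold change of 4.13 (SE 0.32), and Nfatc1, a calcineurin-activated factor, 45.5 ± 5.81 and 599 ± 60.1. At 0 h Gpr39 and Nfatc1 averaged 2.71 and 35.8. Glis1, a zinc finger factor, averaged 36.4 ± 6.69 at 0 h, 14.4 ± 4.56 at 1% CO2 and 249 ± 29.8 in NaOH. Pmepa1 differed by 3.75 (SE 0.14).

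The genes lowest in NaOH relative to 1% CO2 were Mgp, Spp1, Txnip, Angptl4 and Ehbp1. Mgp, matrix Gla protein, an inhibitor of calcification, averaged 82.3 ± 2.10 (SD, n = 4) at 0 h, 80.996 ± 11.2 in NaOH and 568 ± 74.2 at 1% CO2, a log2 fold change of -2.81 (SE 0.12) between the treatments. Spp1, osteopontin, averaged 388 ± 25.1, 375 ± 40.6 and 1779.6 ± 151. In NaOH these 2 genes were near their 0 h level, with log2 fold changes from 0 h of -0.029 (SE 0.13) and -0.051 (SE 0.096). Txnip averaged 189 ± 32.5 at 1% CO2, between its levels at 0 h and in NaOH. Angptl4 averaged 247 ± 34.9 at 1% CO2 against 57.9 ± 6.13, and Ehbp1 80.6 ± 25.4 against 19.6 ± 5.84.

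By list, 6 of 20 enzymes of cholesterol synthesis were lower in NaOH than at 1% CO2, with a median of -0.67 against 0 over all tested genes. Hmgcs1 differed by -0.26 (SE 0.079) and was not called. Of 31 growth factors and cytokines, 9 were higher in NaOH and 1 lower, Pdgfa by 1.57 (SE 0.093) and Fstl3 by 1.77 (SE 0.11). Of 23 genes of TGFbeta signalling, 6 were higher and 1 lower, with Smad7 at 1.46 (SE 0.12). The muscle actins were higher in NaOH, Acta1 by 2.65 (SE 0.13) and Acta2 by 2.46 (SE 0.11). In ribosome biogenesis 1 of 50 differed, and Ccl2, at 0.41 (SE 0.11), Fosl1, at 0.52 (SE 0.098), and Slc2a1, at 0.65 (SE 0.069), did not pass the limits between the treatments.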

How the data were processed

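RNA of 20 NIH3T3 libraries in 5 groups of 4 was counted by bulk MARS-seq. The raw counts, deposited per gene, came from a pipeline in which the authors trimmed reads with cutadapt, aligned them to mm10 with STAR (given as 2.4.2a by the submitters' processing notes) and used HTSeq to count molecular identifiers. Each RefSeq gene had been lengthened by 1000 bases upstream and 100 downstream. The authors also deposited a normalized signal, the count over 1 size factor per library, which was used here only to check the table. The table held 11075 genes, and genes absent from it were not analysed here.

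R 4.3.3 and edgeR 4.0.16 served for the fit of the counts (TMM factors, robust quasi-likelihood F test, Benjamini-Hochberg adjustment) over all 20 libraries, for genes averaging 5 or more normalized counts. A call needed an adjusted p not above 0.05 together with a log2 fold change of 1 or more in size. Standard errors are the log2 fold change over the root of F. The method was tested on simulated data. The number of counts limits precision for genes of low level.

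Alternatives were DESeq2 1.42.0 at the study's settings, DESeq2 size factors, library size alone, no filter, a mean of at least 20, fewer libraries in the fit, a replicate block and leaving out each replicate. Genes named were the 8 largest changes in each direction whose higher group averaged 50 or more and whose groups did not overlap, the 3 called members of smallest adjusted p of each list with the members called the other way where few, the 10 most abundant called genes, a set of fixed genes and the 5 largest changes of each other comparison. Some genes that met the rule are not reported here. Members and lists were chosen with earlier results of these data known. Promoter sequences are those of RefSeq on GRCm38.p6, the build called mm10. Each library was counted as 1 sample. Chi-square values of counts were 2.394 to 5.321 per degree of freedom between replicates of 0 h and of NaOH 4 h, more than sampling noise gives. They included genes of uncertain values such as Rps2, and they cannot show whether the replicates came from separate cultures.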

Additional observations from a re-analysis of the deposited data

Results flagged for a closer look

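In 33 of 392 groups of 4 libraries (196 genes, each at 0 h and at NaOH 4 h), the highest or lowest library stood apart from the other 3, by a gap that took more of the group's range than Dixon's 95% limit allows. Chance gives such a library in about 1 in 20 groups. In 0 h replicate 2 the normalized count was above the other 3 for Col4a1 (988.1) and Tns3 (131.5) and below them for Per1 (96.42). In 0 h replicate 3 the normalized count was above the other 3 for Actg1 (75.76), Atoh8 (220.6), Bhlhe40 (212.8) and Klf2 (850) and below them for Acvr1 (91.35), Fam129b (992.6), Gadd45b (99.15), Tubd1 (27.85) and Zfp593 (24.51). In 0 h replicate 4 the normalized count was above the other 3 for Insig1 (313.5) and Pdgfa (484.7) and below them for Mgp (79.19), Smad7 (63.19) and Zfp697 (1.6). In NaOH 4 h replicate 1 the normalized count was above the other 3 for Fam129b (4005), Slc39a14 (189) and Trib3 (232.2) and below them for Hmox1 (161) and Klf2 (183). In NaOH 4 h replicate 3 the normalized count was above the other 3 for Ccl2 (1195), Ccl7 (983.4) and Ereg (161.1) and below them for Mxd3 (3.883). In NaOH 4 h replicate 4 the normalized count was above the other 3 for Bmf (58.07) and below them for Cryab (3726). Gapdh, Rps2 and Mir692-1, which have near-identical copies elsewhere in the genome, stepped between far apart values within a group and were not called. Their values are uncertain, and how reads were assigned to them was not tested. Gapdh read 1511 in 0 h replicate 1 where the other 3 libraries read 23.2 to 37.45 and 55.93 in NaOH 4 h replicate 1 where the other 3 libraries read 1708 to 1969. Rps2 read 56.58 in 0 h replicate 2 where the other 3 libraries read 8276 to 9163 and 76.02 in NaOH 4 h replicate 4 where the other 3 libraries read 10580 to 10660. Mir692-1 read 1962 in 0 h replicate 1 where the other 3 libraries read 14.34 to 14.48.

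Of the genes whose changes under the 2 treatments at 4 h differed by the direct test of NaOH against 1% CO2 (edgeR), 9 are given here for their large differences. Both changes share the libraries of 0 h. The log2 difference was 3.75 for Pmepa1, 4.13 for Gpr39, 4.12 for Glis1 and 3.72 for Nfatc1, all higher in NaOH, and -2.51 for Txnip, -2.005 for Ehbp1, -2.07 for Angptl4, -2.81 for Mgp and -2.25 for Spp1, all lower.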

How the results depend on the processing

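The 739 higher and 774 lower genes of NaOH 4 h against 0 h became 650 and 587 with DESeq2 and 512 and 1156 with library size alone, which moved the share of calls that were higher from 48.84% to 30.7%. With a mean count of at least 20 fewer genes were tested, 392 were lower and the share was 60.28%. For 4 h against 2 h the 265 higher and 396 lower genes became 168 and 258 with DESeq2 and 155 and 239 with a mean of at least 20. Against 1% CO2 the 321 lower genes became 186 and 158. The cause of the DESeq2 differences was not tested. Of the 1513 genes called at 4 h against 0 h, 1237 kept their call with DESeq2, 1286 with library size alone and 1513 with DESeq2 size factors, and 0 were called the other way under any alternative run.

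Leaving out 1 replicate gave 721 to 768 higher and 756 to 826 lower genes against 0 h, 243 to 287 and 361 to 400 against 2 h, and 296 to 330 and 298 to 351 against 1% CO2. Replicate numbers showed no sign of pairing the samples. Deviations from the group means had a mean correlation of -0.109 (-0.221 to 0.0119) between same-numbered libraries of 0 h and NaOH 4 h. The mean for different numbers, 0.0363, is nearly fixed by that value, since the deviations were centred on each group. The replicate block gave 736 and 787, 264 and 393, and 307 and 317 genes. It ended the call of Eef1e1, at 0.996, and of no other of the 196 genes tracked against 0 h.

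Of these 196 genes 167 were called. With library size alone 24 calls were lost (Actg1, Anxa5, Bcl2l1, Btg3, Ccnd1, Eef1e1, Eif4a1, Eif5, Fads3, Gadd45g, Hes1, Hmgcs1, Ier3, Insig1, Klf10, Mcl1, Pfkl, Phlda3, Rars, Slc7a1, Srsf2, Zfp52, Zfp697 and Zfp7), and Ddit3 (-1.066) and Mir692-1 (-5.359) were gained. With DESeq2 14 were lost (Arrdc3, Atp5s, Bcl2l1, Btg3, Ccnb1, Dnajb4, Eef1e1, Fos, Mcl1, Slc9a9, Zfp52, Zfp639, Zfp697 and Zfp7). Signs that turned belonged to genes not called: with library size alone Col1a1 (-0.139) and Hspa5 (-0.131), and with 1 replicate left out Hspa5 (-0.070 to 0.139), Mgp (-0.095 to 0.066), Mir692-1 (-5.559 to 0.004), Rps2 (-0.108 to 0.707) and Scd1 (-0.084 to 0.001), and between 4 h and 2 h Acta2 (-0.011 to 0.062) and Tagln (-0.005 to 0.088). Depth limits genes of few counts, such as Ccnb1, Slc4a7 and Dnajb4.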

Other observations

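Some genes that build and traffic within the primary cilium were called lower after 4 h in NaOH. They were listed after their values were seen, so the counts are a description with no test of the group. The list held 28 measured genes of the BBSome and of intraflagellar transport, the cargo and transport machines of the cilium. Of these, 12 were called lower and 0 higher, against 7.96% and 7.60% of all tested genes. At an adjusted p of at most 0.05 alone (edgeR), 20 were lower, against 26.9% of all tested genes. A log2 fold change below 0 was found for 26, and the median was -0.87. These are mostly genes of modest level, with a median of 56.8 normalized counts at 0 h. Wdr19, a subunit of the intraflagellar transport A complex, read 50.2, 48.6, 45.7 and 46.4 at 0 h and 5.08, 2.29, 6.80 and 6.33 after 4 h in NaOH, a log2 fold change of -3.17 (SE 0.25). Ttc8, a BBSome subunit, read 40.1, 24.7, 35.7 and 25.6 at 0 h and 8.47, 4.58, 4.85 and 4.22 after 4 h. For both genes every NaOH library lay below every 0 h library. Ttc30b, Bbs5, Ift81 and Ift88 changed by -2.22, -1.81, -1.502 and -1.48. Ift20, which also works at the Golgi, was the most abundant of the list and went the other way without a call, at 0.54 (SE 0.08). After 4 h at 1% CO2, Wdr19 alone was called lower than at 0 h, at -1.36 (SE 0.20). Bbs12, Ift20 and Wdr35 were above their 0 h level there, at 0.86, 0.12 and 0.09, and the other members were below it.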
